A study of Drosophila melanogaster with 2 samples.

Results

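The genes described here are 10 Drosophila melanogaster genes of the nephrocyte, of 13968 protein-coding genes on the chromosome arms. They were taken as a named list, because Klf15 has a known role in nephrocytes, by a rule that uses no measured value, although earlier results of these data were known when the list was made, and all 10 were found under these symbols in Ensembl release 115. In the slit diaphragm group are sns, kirre, rst, hbs, pyd, cindr and Mec2, and in the uptake group Cubn, Cubn2 and Amnionless. Peaks came from chromatin immunoprecipitation and sequencing with an anti-GFP antibody on embryos of both sexes, 4 to 20 h old, of a transgenic strain that carries Bteb2, the product of Klf15, with GFP fused to its C-terminus. Both libraries, biological replicates 1 and 3, belong to this 1 group, so no condition was set against another. The labels do not say whether the embryos came from separate collections, and the promoter that drives the transgene is not given in the sources used here. Whole embryos were used, in which nephrocytes are a minor cell type. A peak can therefore not be assigned to nephrocytes, and peak positions hold no marker levels by which the cell types could be checked.

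Nephrocytes are the filtration cells of the fly, known as garland cells around the gut and pericardial cells beside the heart. Their surface is folded into channels closed by a slit diaphragm, built from immunoglobulin-domain proteins that resemble nephrin and Neph1 of the vertebrate podocyte, and filtered protein is taken up in the channels by the receptor pair Cubilin and Amnionless. In genetic work on Drosophila, Klf15 is known to be needed for nephrocytes to form and mature. KLF proteins bind GC boxes and CACCC boxes through zinc fingers.

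Peak summits were the unit of measurement. The optimal list holds the 3350 regions that the authors kept as reproducible, ranked here by the authors' signal value from 1 for the strongest, and the relaxed lists hold 30000 candidate regions each for the pooled replicates, for replicate 1 and for replicate 3. The optimal regions were exactly the 3350 strongest of the pooled list. Relaxed regions below that rank may include background. A summit within 1000 bp of any annotated transcription start site (TSS) of a gene is called a promoter summit, and one between the gene's annotated ends a gene-body summit. Depth is unknown, since read totals were not used here, and the absence of a summit shows only that no region was listed there. Neither input libraries nor peaks of other GFP-tagged proteins were used, so regions recovered with any tagged protein could not be separated from sites of Bteb2.

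The windows that carry the results are 201 bases around a summit on the plus strand of Release 6 (dm6), written 5′ to 3′. They show summits of cindr, pyd and kirre (the promoter summits of cindr and pyd, an intronic one of cindr and the strongest in kirre), the TSS summits of Mec2 and rst, and the only optimal windows near any of the 10 genes that held a KLF or SP box. Capitals mark matches, on either strand, to the words searched: TATCGATA (the DRE), GGTCACACT (motif 1), the KLF and SP boxes (GGGTGTG or GGGTGGG of the CACCC type, GGGCGTG or GGGCGGG of the GC type), the GAGA word GAGAGAG, the forkhead word TGTTTAC, the E-box CAGCTG, the GATA word AGATAA, the Tinman word CACTTGA and the homeodomain word TAATTA. A window with no capitals held none of these words. The genes pyd, rst and Cubn lie on the minus strand, so their windows read against the direction of transcription. The other genes named at the windows, LPCAT, wts and CG32795, also lie on the minus strand.

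cindr, internal promoter, chr3R:30817359-30817559: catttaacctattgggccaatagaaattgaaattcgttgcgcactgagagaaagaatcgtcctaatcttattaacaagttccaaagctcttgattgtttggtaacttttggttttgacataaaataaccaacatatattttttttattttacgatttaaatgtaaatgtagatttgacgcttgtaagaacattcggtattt
cindr, intron, chr3R:30813899-30814099: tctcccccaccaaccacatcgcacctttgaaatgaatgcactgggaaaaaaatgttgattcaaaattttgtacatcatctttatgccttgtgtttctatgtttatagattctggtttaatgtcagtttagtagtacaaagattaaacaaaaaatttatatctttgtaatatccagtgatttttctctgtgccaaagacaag
pyd, upstream promoter, chr3R:8931981-8932181: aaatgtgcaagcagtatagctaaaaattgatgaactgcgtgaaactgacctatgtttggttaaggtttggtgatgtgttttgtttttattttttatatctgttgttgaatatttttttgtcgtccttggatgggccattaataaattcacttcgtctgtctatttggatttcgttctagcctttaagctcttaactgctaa
pyd, internal promoter, chr3R:8846226-8846426: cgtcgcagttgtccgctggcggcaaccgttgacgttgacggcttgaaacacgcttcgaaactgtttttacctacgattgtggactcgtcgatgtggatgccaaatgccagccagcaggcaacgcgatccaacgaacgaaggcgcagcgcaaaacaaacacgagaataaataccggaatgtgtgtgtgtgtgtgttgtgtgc
kirre, intron, also inside CG32795, chrX:2786632-2786832: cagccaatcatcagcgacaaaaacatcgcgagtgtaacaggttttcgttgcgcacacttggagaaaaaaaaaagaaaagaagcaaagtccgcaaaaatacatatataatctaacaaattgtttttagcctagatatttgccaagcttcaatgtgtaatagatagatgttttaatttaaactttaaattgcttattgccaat
Mec2, promoter, relaxed list, chrX:19187798-19187998: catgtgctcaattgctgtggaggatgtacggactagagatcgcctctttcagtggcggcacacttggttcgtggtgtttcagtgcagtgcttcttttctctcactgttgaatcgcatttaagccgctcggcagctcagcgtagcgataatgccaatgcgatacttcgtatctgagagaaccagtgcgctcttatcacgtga
rst, promoter, relaxed list, chrX:2973722-2973922: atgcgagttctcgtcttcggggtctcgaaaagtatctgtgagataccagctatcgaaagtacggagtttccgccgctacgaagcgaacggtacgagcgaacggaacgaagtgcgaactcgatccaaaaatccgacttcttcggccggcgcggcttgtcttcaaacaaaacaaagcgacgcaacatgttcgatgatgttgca
Cubn, upstream neighbour LPCAT, chrX:9579200-9579400: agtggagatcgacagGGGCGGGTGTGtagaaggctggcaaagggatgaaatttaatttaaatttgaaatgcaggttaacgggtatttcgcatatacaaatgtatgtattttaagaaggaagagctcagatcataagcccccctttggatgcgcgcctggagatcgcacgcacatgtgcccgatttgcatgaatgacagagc
cindr, upstream neighbour wts, chr3R:30802259-30802459: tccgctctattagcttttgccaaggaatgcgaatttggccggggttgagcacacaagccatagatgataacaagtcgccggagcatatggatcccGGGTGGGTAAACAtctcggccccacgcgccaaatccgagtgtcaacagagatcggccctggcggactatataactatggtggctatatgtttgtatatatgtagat

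Promoter summits of the optimal list were found at 2 of the 10 genes, pyd and cindr, which is 20% (exact 95% interval 2.52 to 55.6), against 20.4% of all protein-coding genes. Gene-body summits were found at 3 of 10, kirre, pyd and cindr (30%, 6.67 to 65.2), against 9.61% of protein-coding genes. The gene or the 10 kb around it held an optimal summit at 7 of 10 (70%, 34.8 to 93.3), against 56.6%. The promoter share was close to that of all protein-coding genes, and no count was tested. Gene-body summits were more common in long genes, and 5 of the 10 genes are longer than 20 kb. A gene-body summit was found at 48.3% of protein-coding genes over 100 kb (kirre and pyd), 37.9% of those of 20 to 100 kb (sns, rst and hbs), 21.3% of those of 5 to 20 kb (cindr, Cubn and Cubn2) and 4.01% of shorter ones (Mec2 and Amnionless). Promoter summits stood at 32.2%, 27%, 28.7% and 17.7% of the same length classes. The receptor genes Cubn, Cubn2 and Amnionless had no optimal summit at a TSS or in the gene, and neither did sns, rst, hbs and Mec2. Intervals cover counting error only.

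**Figure D1:**
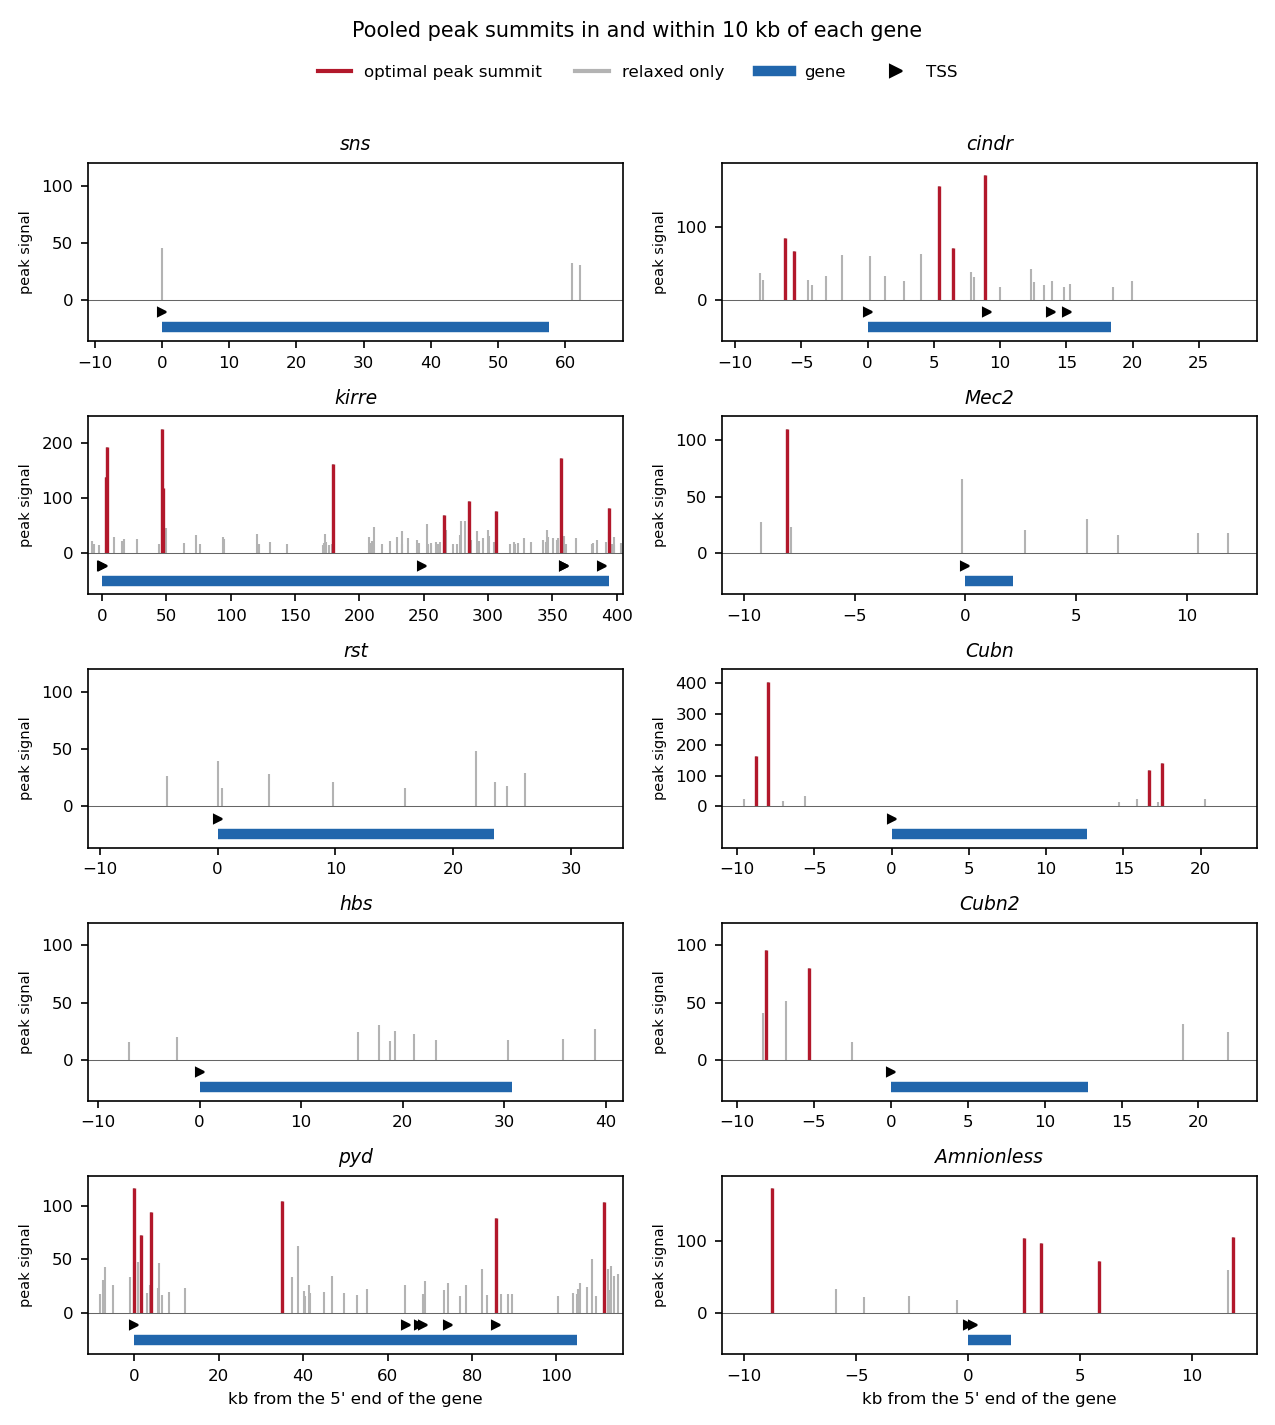
Summits of the pooled peak list (vertical lines, height is the authors' peak signal) against the distance in kb from the 5′ end of each gene, with optimal peaks in red, relaxed-only peaks in grey, the gene as a blue bar and each TSS as a triangle. The signal scale differs between panels. Red lines stand inside kirre, pyd and cindr, while those of Mec2, Cubn, Cubn2 and Amnionless stand outside the gene.

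In all, 33 optimal peaks lay in these genes or within 10 kb, and no peak was shared by a pair of them. Of these, 3 were promoter summits, 14 lay elsewhere in a gene body and 16 outside the gene. Of the 16 that lay outside, 14 were within 1000 bp of the TSS of another gene, and the remaining 2 were in wts. Over all 3350 optimal summits, 68.5% were within 1000 bp of some TSS. Each of the 16 summits inside a gene body was in an intron of that gene, and none was in a coding exon. Of these 16, 9 lay in kirre and 4 in pyd, the longest of the 10 genes. The intron share of all optimal gene-body summits was not counted, so this placement is not shown to be particular to these genes.

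The strongest promoter summit belonged to cindr (FBgn0027598, 3R from 30808617 to 30827005), which encodes the CD2AP and CIN85 homologue, an adaptor that links slit diaphragm proteins to actin and endocytosis. Its signal was 171 at rank 571, and the summit lay 155 bp upstream of an internal TSS that starts 8997 bp into the gene. The replicates placed it at ranks 698 (replicate 1) and 605 (replicate 3). In the intron before that TSS lay a further summit of signal 156 (rank 725, 644 in replicate 1 and 879 in replicate 3) and a weaker one of signal 70.7 (rank 2991). The weaker one stood at 5523 in replicate 1 and 2133 in replicate 3. All 3 lay in no other annotated gene. At the most upstream TSS of cindr the best summit was a relaxed one, 177 bp downstream, at rank 3804 (5412 in replicate 1 and 2493 in replicate 3). The other 2 internal TSSs had relaxed summits at best ranks 14312 and 17980.

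Per length, cindr held the most optimal summits of the 10 genes, with 1.63 per 10 kb, against 0.301 per 10 kb over protein-coding genes of 5 to 20 kb and 0.25 per 10 kb over all arms other than Y. Of 2472 protein-coding genes of 5 to 20 kb, 40 had 3 or more gene-body summits. Upstream of cindr, a pair of optimal summits of signal 84.7 and 67.8 lay 6258 and 5571 bp outside the gene. Both were inside wts, the gene of the Hippo pathway kinase Warts, and 4260 and 3573 bp from its nearest TSS.

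In pyd (FBgn0262614, 3R from 8827068 to 8931896, minus strand), the gene of the ZO-1 homologue Polychaetoid, a junctional scaffold, summits stood at both ends of a series of alternative promoters. The summit 185 bp upstream of the most upstream TSS had a signal of 116 and ranked 1239 in the pooled list, 1171 in replicate 1 and 1596 in replicate 3. A second promoter summit, of signal 88.8 at rank 2032, lay 37 bp upstream of the most downstream TSS, 85607 bp into the gene. It ranked 1239 in replicate 1 and 6646 in replicate 3, so only replicate 1 had it among its strongest 3350 regions. The 4 TSSs between them had relaxed summits only, at best ranks 11430 to 24861. The summits at ranks 11430 and 24861 also lay within 1000 bp of the TSS of tRNA:Arg-TCG-2-4, 123 bp from it at rank 11430.

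The introns of pyd held another 3 optimal summits. The strongest had a signal of 104 (rank 1536), in the long intron 34949 bp from the 5′ end, and those of signal 94.3 (rank 1818) and 73 (rank 2834) lay 3909 and 1506 bp downstream of the first TSS. The replicate ranks of the first were 1642 and 1678, those of the second 1933 and 1487 and those of the third 3594 and 2427 (replicate 1, then replicate 3). With 4 gene-body summits over 105 kb, pyd had 0.382 per 10 kb, against 0.0755 over genes of its length class, and 11 of the 87 protein-coding genes over 100 kb had as many or more. Past the 3′ end an optimal summit of signal 103 lay 27 bp from the TSS of lncRNA:CR43130 and within 1000 bp of that of aqz.

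The gene kirre (FBgn0028369, X from 2740384 to 3134532), which encodes a Neph1-like adhesion protein that pairs with Sns across the slit, had the most optimal summits in its body and none within 1000 bp of a kirre TSS. Over its 394 kb it held 9 optimal gene-body summits, or 0.228 per 10 kb, against 0.0755 per 10 kb over protein-coding genes longer than 100 kb and 0.25 per 10 kb over all arms other than Y. Among the 87 protein-coding genes over 100 kb the median was 0 and only 1 gene had more than kirre. The protein-coding genes with more gene-body summits were CG1677 with 12 over 125 kb and CHES-1-like, sbb and ush with 10 each over 27 kb, 79.1 kb and 64.3 kb.

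**Figure D2:**
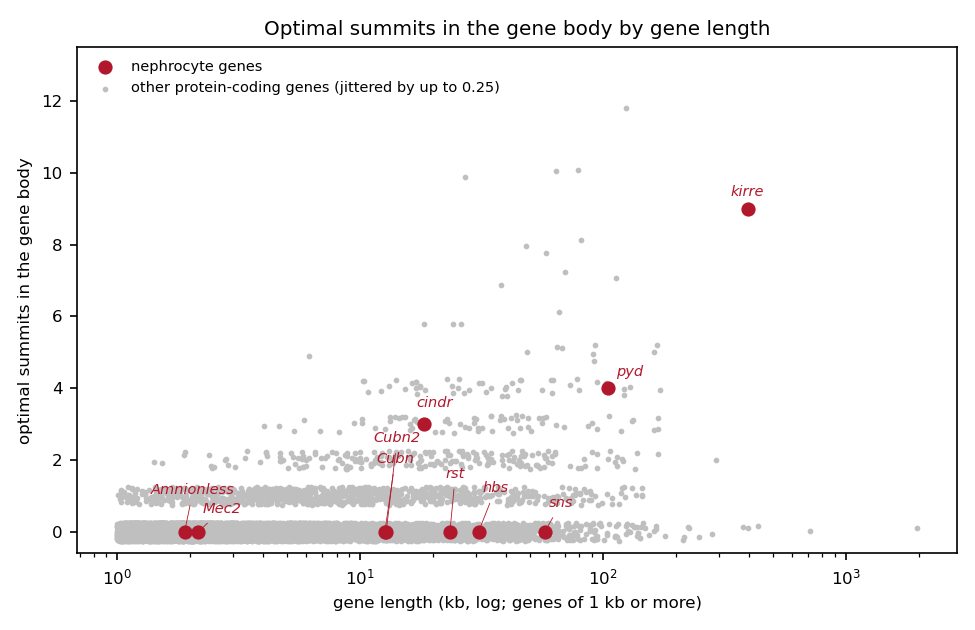
Optimal summits in the gene body (y axis, count) against gene length in kb (x axis, log scale), with the 10 nephrocyte genes in red and other protein-coding genes in grey, moved up or down by up to 0.25 to separate them. The gene kirre stands at 9, pyd at 4 and cindr at 3, and the other 7 nephrocyte genes at 0.

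The span of kirre holds 21 other protein-coding genes, rst and w among them, so a summit inside it need not belong to kirre. Of its 9 summits, 3 lay within 1000 bp of another gene's TSS, and a further 2 lay inside another gene. The remaining 4 lay in no other annotated gene and near no other gene's TSS. Near the 5′ end, summits of signal 192 (rank 430) and 139 (rank 915) were each upstream of a different TSS of Syx4, a syntaxin gene. The first lay 128 bp from its TSS, and the second lay 340 bp from its own and inside Syx4. The summit of signal 161 (rank 665) lay 165 bp downstream of the TSS of CG3588. The strongest, of signal 226, ranked 301 in the pooled list, 357 in replicate 1 and 252 in replicate 3. It lay in CG32795 together with that of signal 119 (rank 1194), which ranked 665 in replicate 1 and 4556 in replicate 3.

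The 4 summits of kirre in no other gene and near no other gene's TSS had signals of 172, 94.2, 75.7 and 68.8. The first, at rank 559 (476 in replicate 1 and 909 in replicate 3), lay 2349 bp upstream of the nearest kirre TSS, one of a close pair 359166 and 359198 bp from the 5′ end. The others lay 36670, 53331 and 16954 bp from a kirre TSS, at ranks 1826, 2662 and 3117. At the close TSS pair the pooled relaxed list had a summit at rank 10697, and at the other 4 kirre TSSs no list had one within 1000 bp. Beyond the 3′ end, an optimal summit of signal 81.7 lay 55 bp outside kirre and 283 bp upstream of the TSS of N, which encodes the receptor Notch.

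The gene rst (FBgn0003285, X from 2950399 to 2973834, minus strand), whose product Roughest is the paralogue of Kirre, lies inside the kirre span and had no optimal summit. Its 6 pooled relaxed gene-body summits are counted in kirre as well. A relaxed summit stood 12 bp downstream of its only TSS, with a signal of 39.7 and rank 7361 (6855 in replicate 1 and 13005 in replicate 3). The strongest relaxed summit in the gene, of signal 48.2 at rank 5435, lay in its 3′ UTR. None of the 3 nephrocyte genes of 20 to 100 kb had an optimal gene-body summit, which 37.9% of protein-coding genes of that length had.

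At sns (FBgn0024189, 2R from 8798489 to 8856091), the gene of the nephrin-like protein Sticks and stones, the replicates differed. The pooled relaxed list had a summit 15 bp upstream of its only TSS, with a signal of 45.8 at rank 5872. Replicate 1 had it at rank 4610, while replicate 3 had no region of its 30000 there or anywhere within 1000 bp of the TSS. Among the 2000 pooled regions of rank 5001 to 7000, 99.5% overlapped a replicate 1 region and 96.7% a replicate 3 region. No pooled summit lay in the 57.6 kb of sns, although the relaxed list of each replicate had 1 there. The nearest optimal summit was 108955 bp from the sns TSS.

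For hbs (FBgn0287864, 2R from 15011396 to 15042134), whose product Hibris is the paralogue of Sns, the pooled list had no promoter summit. Replicate 1 had one at rank 23668, 423 bp upstream of the TSS, and replicate 3 had none. Of its 7 pooled relaxed gene-body summits the best ranked 11135, at 15161 in replicate 1 and 19577 in replicate 3. That was the weakest best rank among the 10 genes, within 10 kb as well.

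Mec2 (FBgn0030993, X from 19188035 to 19190193), which encodes the homologue of podocin, a membrane scaffold of the slit diaphragm, had a promoter summit just outside the optimal list. It lay 137 bp upstream of the only TSS, with a signal of 65.8 at rank 3368, 18 places below the last optimal region, whose signal was 65.9. In replicate 1 it ranked 2676 and in replicate 3 it ranked 5418, so replicate 1 alone placed it among its strongest 3350. The optimal summit within 10 kb of Mec2, of signal 110 at rank 1397, was 143 bp upstream of CG7556 and also within 1000 bp of the TSS of CG7453.

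**Figure D3:**
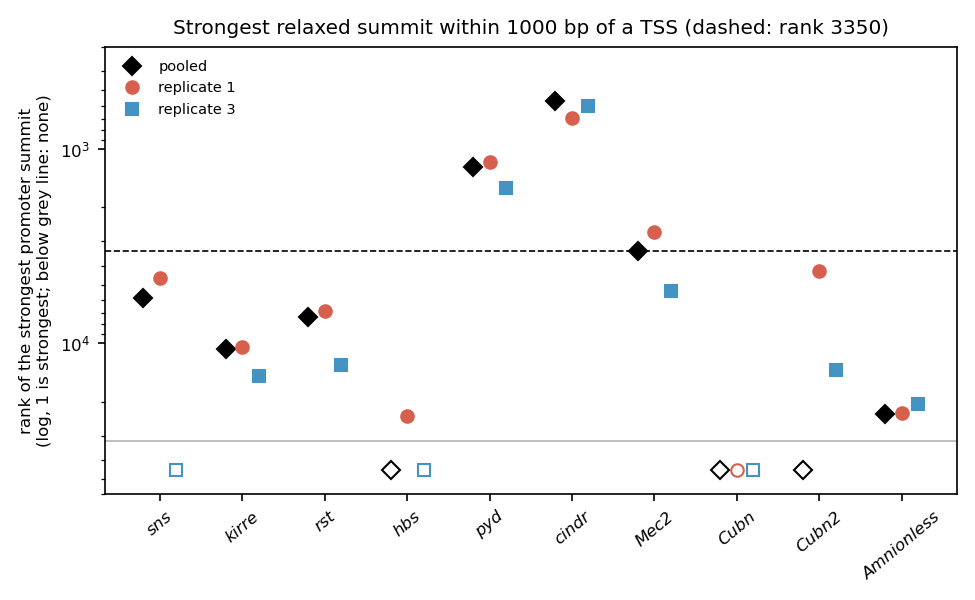
Rank (log scale, 1 is the strongest) of the strongest summit within 1000 bp of a TSS of each gene, in the pooled list (black), replicate 1 (red) and replicate 3 (blue), with open symbols where a list had none. The genes pyd and cindr stand above rank 3350 (dashed) in all 3 lists, Mec2 straddles it, and Cubn has open symbols only.

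Among the receptor genes, Cubn (FBgn0052702, X from 9558665 to 9571308, minus strand), the gene of Cubilin, had no promoter summit in the pooled list or in either replicate. That was also the case for 29% of protein-coding genes. No pooled summit lay in its 12.6 kb either. Yet the strongest peak near any of the 10 genes lay beside it, with a signal of 405 at rank 80, 72 in replicate 1 and 92 in replicate 3. It was 7992 bp upstream of Cubn and inside LPCAT, a lysophospholipid acyltransferase gene, 687 bp downstream of the LPCAT TSS. A summit of signal 165 (rank 629) lay 116 bp upstream of that TSS, and summits of signal 141 and 118 on the other side of Cubn were at l(1)G0320 and at RpS28b, a ribosomal protein gene.

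Cubn2 (FBgn0259140, 3L from 11801951 to 11814755, minus strand), which encodes a second Cubilin-like receptor, had no pooled promoter summit. Replicate 1 had one 600 bp upstream of the TSS at rank 4261, and replicate 3 had its best 357 bp upstream at rank 13713. Its neighbouring optimal summits, of signal 96.3 and 80.3, lay 1 bp upstream of the TSS of RpL10Ab, a ribosomal protein gene, and 122 bp upstream of CG5946. The second of these ranked 1502 in replicate 1 and 10204 in replicate 3.

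Amnionless (FBgn0025686, 2L from 287252 to 289144, minus strand), whose product holds Cubilin at the membrane, had a faint relaxed promoter summit. Its signal was 18.5 at rank 23227, and the best ranks were 22965 in replicate 1 and 20695 in replicate 3. This pooled summit lay inside CG3625, a gene that overlaps Amnionless. All 5 optimal summits within 10 kb were within 1000 bp of other genes' TSSs. The strongest, of signal 172 at rank 561, was at the TSS of Pi3K21B, the adaptor subunit of phosphoinositide 3-kinase. The nearest, of signal 103 and 96.6, lay 617 and 1358 bp past the 3′ end of Amnionless, 104 and 168 bp upstream of TSSs of CG3625. Both were inside CG3625.

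Over the relaxed list of the pooled replicates, 7 of the 10 genes had a promoter summit (70%, 34.8 to 93.3), against 62.4% of protein-coding genes. In the same list 5 had a gene-body summit, against 43.3%, and all 10 had a summit in the gene or within 10 kb, against 90.5%. Both replicate relaxed lists had some promoter summit, not always at the same position, at 7 genes, against 54.7%. These were kirre, rst, pyd, cindr, Mec2, Cubn2 and Amnionless. The best promoter rank had a median of 5872 over the 7 genes with one and of 5960 over the 8722 protein-coding genes with one. The best rank in the gene or within 10 kb had a median of 1318 over the 10 genes and of 2229 over the 12638 protein-coding genes that had a pooled summit there. At Cubn, Cubn2, Mec2 and Amnionless that best peak was at another gene's TSS, and at kirre it lay inside CG32795 as well. Gene length, which widens the span searched, was not matched. The distance from a TSS to the nearest optimal summit had a median of 6657.5 bp over the 10 genes and of 8825 bp over protein-coding genes.

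Most of the 33 optimal peaks ranked high in both replicates. Of these, 24 were among the strongest 3350 of both replicates, or 72.7%, against 74.4% of all optimal peaks. A further 6 were so ranked in replicate 1 alone and 3 in replicate 3 alone, and all 33 were in both relaxed lists. Of the 17 in a promoter or gene body, 12 were among the strongest of both. Taken alone, the strongest 3350 regions of replicate 1 gave a promoter summit at 3 of the 10 genes, against 20.3% of protein-coding genes, and those of replicate 3 at 2, against 20.2%. They gave a gene-body summit at 3 genes in either replicate, against 9.92% in replicate 1 and 9.41% in replicate 3, and a summit within 10 kb at 7, against 56.1% and 56%. Of the relaxed lists, replicate 1 had a promoter summit at 9 genes, against 62.7%, and replicate 3 at 7, against 62.4%.

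**Figure D4:**
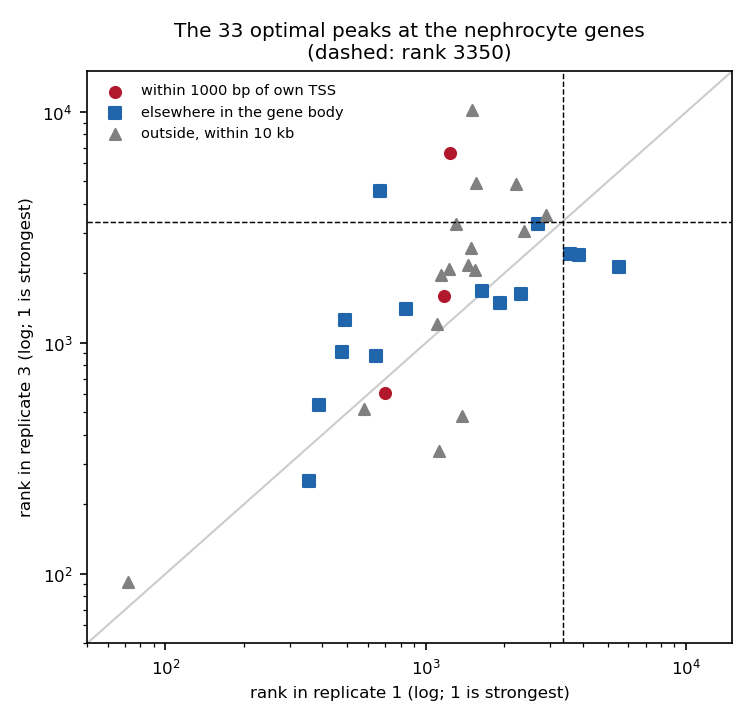
Rank in replicate 3 against rank in replicate 1 (log scales, 1 is the strongest) of the 33 optimal peaks at the nephrocyte genes, with promoter summits as red circles, other gene-body summits as blue squares and summits outside the gene as grey triangles. Dashed lines mark rank 3350, and 24 peaks lie below it in both replicates.

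Searched in windows of 201 bases, none of the 17 optimal promoter and gene-body windows held a KLF or SP box, which 3.79% of all optimal windows held. None held the DRE (5.01% of all), motif 1 (2.09%), the GATA word AGATAA (13.1%) or the Tinman word CACTTGA (3.4%). The GAGA word (3.64% of all) and the E-box (10.3%) occurred in 1 intronic window of pyd each, and the forkhead word (8.09%) and the homeodomain word (16.3%) in 1 window of kirre each. A missing word says only that these letters are not in the window. The peak windows that did hold a KLF or SP box lay outside the genes. At the LPCAT summit beside Cubn, GGGCGGG and GGGTGTG overlapped, the first starting 85 bases from the summit. In the wts summit upstream of cindr, GGGTGGG started 5 bases from the summit and overlapped the forkhead word on the other strand. The DRE, a core promoter word bound by DREF, stood in the windows at RpL10Ab near Cubn2 and at CG17078 near Amnionless, and the second of these also held motif 1.

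In the 152 pooled relaxed promoter and gene-body windows of these genes, 12 held a KLF or SP box (7.89%), against 6.79% of all pooled windows. The 17 optimal windows had a GC content of 35% ± 6.29 (SD), against 36.1% ± 6.62 over all 3350. Among the printed windows in or at the genes, GC content was 29.9% at the cindr internal promoter, 32.3% at the cindr intron and at the kirre intron, and 33.3% at the upstream pyd promoter. It was 50.2% at Mec2, 51.2% at rst and 52.7% at the internal pyd promoter, so promoter windows were found at both ends of this range.

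Genes that work with these proteins were counted in the same way. Of 30 genes of slit diaphragm signalling and actin, 16 had an optimal promoter summit (53.3%, 34.3 to 71.7), against 20.4% of protein-coding genes. The strongest were those of Src64B, a Src-family kinase gene (rank 476, 607 in replicate 1 and 378 in replicate 3), and of par-6, a polarity scaffold gene (rank 793), whose peak also lay within 1000 bp of the TSS of CG8188. Of 26 genes of endocytosis, 11 had one (42.3%, 23.4 to 63.1), led by Rbsn-5, a Rab5 effector gene (rank 234), and Vha55, a subunit gene of the vacuolar proton pump (rank 485). Their peaks lay within 1000 bp of the TSSs of PAPLA1 and Snx3 as well. Of the 8 exocyst genes 5 had one (62.5%, 24.5 to 91.5), at best ranks 1540 for Sec6, shared with Atg7, and 1575 for Sec3, shared with COX7B. Most of the 5 exocyst peaks, and several further peaks of the other lists, also lay within 1000 bp of another gene's TSS. A summit counted here therefore need not belong to the listed gene.

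Myoblast fusion uses the same adhesion proteins. Of 12 other genes of fusion, 5 had an optimal promoter summit (41.7%, 15.2 to 72.3), against 20.4% of protein-coding genes. The strongest were at mbc, the gene of the Rac activator Myoblast city (rank 612, shared with Nup98-96), and at Hem, a SCAR complex gene (rank 673, shared with IleRS). Some of the weaker fusion peaks were shared in the same way. Of 10 basement membrane genes 2 had one (20%, 2.52 to 55.6), the laminin genes LanB1 (rank 2481) and LanA (rank 3229). The LanB1 peak ranked 1931 in replicate 1 and 27010 in replicate 3. Gene length and the number of TSSs differ between such lists and all genes, and their part in these shares was not tested.

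**Figure D5:**
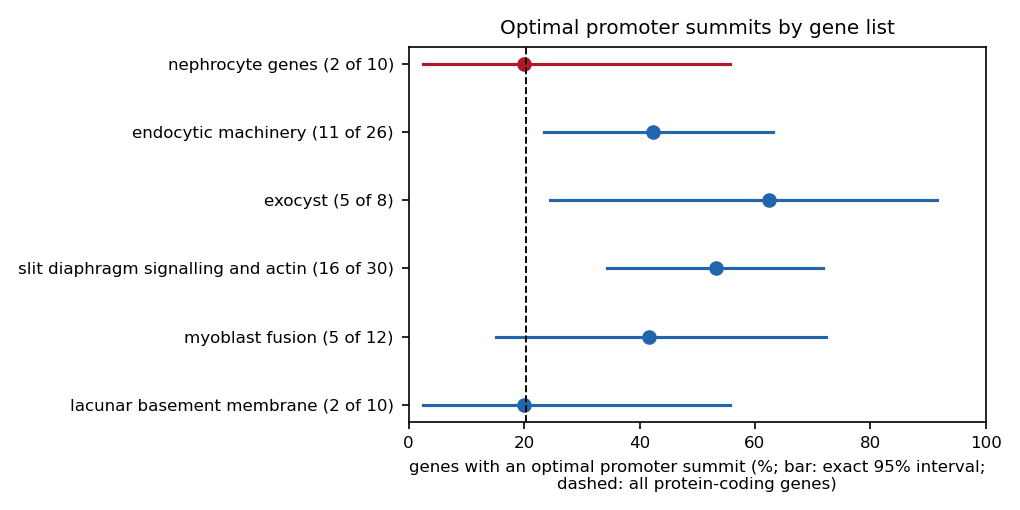
Share of genes with an optimal promoter summit (%, points) in the nephrocyte genes (red) and in lists of genes that work with them (blue), with exact 95% intervals as bars and the share of all protein-coding genes, 20.4%, as a dashed line. The nephrocyte and basement membrane genes stand at 20% and the other lists above 40%.

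Marker genes of other cells of the embryo were counted as a description. Against 20.4% of protein-coding genes, optimal promoter summits stood at 1 of 5 neuronal genes (elav, rank 168; 20%, 0.505 to 71.6) and 1 of 4 tracheal genes (trh, rank 2542; 25%, 0.631 to 80.6). They stood at 2 of 3 glial genes (moody, rank 107, and loco, rank 1684), or 66.7% (9.43 to 99.2). At 5 haemocyte and 5 muscle genes the count was 0, which allows up to 52.2% in each, and at 2 fat body genes it was 0, which allows up to 84.2%. The nephrocyte markers were sns, Mec2, Cubn and Amnionless, already described, and Hand, a transcription factor gene of heart and pericardial cells, which had no optimal promoter summit. Lists this short do not set one cell type apart from another.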

How the data were processed

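The members and all gene lists were chosen with earlier results of these data known. Chromatin bound by Bteb2-eGFP was measured in 2 libraries, and the authors' deposited dm6 peak lists, which carry no header and use narrowPeak columns, were used. Signal is the authors' value in column 7, whose scale differs between lists, so it served to rank peaks within a list. The −log10 q-value deposited in column 9 was 3.95 for every optimal peak. Per the notes beside the files, each relaxed list was made from alignments and a further file common to both replicates, and the optimal list from the relaxed lists by the irreproducible discovery rate method. No source used here names the aligner, the peak caller or the cut-off. Lists on dm3 were left out, since no dm3 annotation was at hand. Read depth is unknown.

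A summit is column 2 plus column 10, written 1-based. All peaks fitted within the arms of the Release 6 genome, and genes came from Ensembl release 115 (18277 genes and 23694 distinct TSSs, without transposable elements). Regions were matched between lists by 1 bp of overlap and nearest summit. Named genes were the 10 members, the gene of nearest TSS at peaks within 10 kb of them, up to 2 genes of each companion list with the strongest promoter peaks, and the genes with the most gene-body summits. Other promoters sharing a named peak, the markers with a summit and the genes in the kirre span were named after their values were seen. Of the listed names, Vps34, Arf51F, sltr and duf were brought up to date (Pi3K59F, Arf6, Vrp1 and kirre), and schizo and FatP had no match. Members were left out of the companion lists, so kirre is not among the 12 genes of fusion. Genes placed in 2 lists were counted in each. No test was made: counts stand beside the share of all protein-coding genes, with exact Clopper-Pearson 95% intervals. Counting was tested on simulated summits at 40 genes. Tables were handled in pandas 2.3.3 under Python 3.11.15, intervals came from SciPy 1.17.1, arrays from NumPy 2.4.6 and plots from matplotlib 3.10.9. Alternatives were other promoter and gene windows, the most upstream TSS, whole-peak overlap, the stronger part of each list, and each replicate alone.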

Additional observations from a re-analysis of the deposited data

How the results depend on the processing

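With only the most upstream TSS of each gene, 1 of the 10 genes, pyd, had an optimal promoter summit in place of 2, against 18.8% of protein-coding genes, since the promoter summit of cindr is at an internal TSS. Among optimal peaks above the median signal of the list, 9 gene-body summits were counted in place of 16. A shortened list holds fewer summits by construction. They still lay in 3 of the 10 genes, against 5.46% of protein-coding genes in that shorter list. The other 25 of 27 alternatives moved no count at these genes by more than 1.5 times. The share of all protein-coding genes was not part of that rule. With whole-peak overlap, 3 of the 10 genes still had a gene-body peak, but against 18.4% of protein-coding genes in place of 9.61%. Without replicate 1 or replicate 3, as many of the strongest peaks of the other were used in place of the optimal list. The number of genes with a promoter summit was then 2 to 3, with Mec2 added by the peaks of replicate 1. The shares of protein-coding genes were 20.2% without replicate 1 and 20.3% without replicate 3. The number with a gene-body summit was 3 to 3, against 9.41% and 9.92% in the same order, and with a summit within 10 kb 7 to 7, against 56% and 56.1%. A relaxed promoter summit stood at 7 to 9 genes, against 62.4% and 62.7%, and gene-body summits among the strongest peaks numbered 14 to 17. No paired analysis was possible because the samples form 1 group. Signal cannot be compared between lists, depth is unknown, and with 10 genes the intervals are wide.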
